A study of Mus musculus with 123 samples.

Results

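Sterol and fatty acid synthesis was followed through 33 named genes, all of which had a row among the 13842 genes of the deposited RNA table. The list was drawn up by function, though with earlier results of these data known. Counts of members set beside shares of all genes therefore describe the list and are no independent test. It holds 18 enzymes of the sterol pathway and 5 genes called SREBP regulators here. These are Srebf1 and Srebf2, which encode the SREBP transcription factors, and Insig1, Insig2 and Scap, which control them. The sterol transfer protein Stard4 and 9 genes of fatty acid synthesis and desaturation complete the list. No filter on low values was applied, and none of the 33 was at 0 in any library.

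Cells build cholesterol from acetyl-CoA through the mevalonate pathway to squalene, which is closed into lanosterol and trimmed to cholesterol. The sterol pathway genes are targets of SREBP transcription factors, which are held in the endoplasmic reticulum by the Insig proteins and escorted to the Golgi for cleavage by Scap when sterols run low; Insig1 is itself such a target, and Srebf1 acts more on fatty acid genes. The blood-brain barrier keeps lipoprotein cholesterol out of the brain, so that brain cells make their own, astrocytes in the adult and oligodendrocytes while they lay down myelin.

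RNA-seq and ATAC-seq, which reads open chromatin by transposase insertion, were made from the cerebral cortex of single animals, most of which have both kinds of library here, in male mice of the inbred strain C57BL/6J that were 11 to 12 weeks old and lived in 12 h of light and 12 h of dark. Controls slept at will and were taken at ZT0 (light onset, 8 animals), ZT3 (3 animals), ZT6, ZT12 (dark onset) and ZT18 (5 animals each), and the other mice lost their first 6 h of light-phase sleep to gentle handling. These were taken after 3 h (T27) and 6 h (T30) of handling, later on that day (T36, T42), on the next days (T48, T54, T60, T66, T72, T78) and 7 days later (T192, T198), with 3 animals per group and T counted in hours on the clock of the study, on which deprivation ran from T24 to T30. All groups were wild type and undrugged as far as the labels say, and enforced wakefulness and handling came together, so that their effects cannot be told apart.

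The 62 RNA libraries carry labels of 2 batches: all animals of T27, T30, T36, T42, T48, T54, T72, T78 and ZT3 are in batch 1, all animals of T60, T66, T192 and T198 are in batch 2, and the other controls are in both. RNA levels are given in log2 units as deposited, on a scale set by the authors on which genes cannot be compared with each other. The protocol states over 36 M mappable reads per RNA library (median 55 M), but the table holds no counts and the depth behind a single RNA value is unknown. The 59 ATAC libraries held 2.21 to 11.9 M reads in peaks. Markers of astrocytes (13 genes), oligodendrocytes (12), microglia (12), endothelium (12), excitatory (10) and inhibitory (10) neurons and oligodendrocyte precursors (10) were all measured and none was at 0 in any library. In bulk cortex, fewer cells of a type and less RNA per cell cannot be told apart. Differences were tested with limma across all genes, with 1 mean per group and a term for batch, and a gene was called at a Benjamini-Hochberg adjusted p below 0.05.

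Upstream sequences were read for the 4 members with the largest falls after 6 h of deprivation among those with a RefSeq start, and for Ebp, the member that rose. Each run is the 250 bases before the start site in GRCm38, printed 5′ to 3′ on the strand of the gene, with capitals marking the CCAAT box bound by NF-Y (CCAAT, or ATTGG where it lies on the other strand) and the sterol regulatory element TCACNCCAC bound by SREBP.
Insig1, chr5:28071162-28071411, plus strand: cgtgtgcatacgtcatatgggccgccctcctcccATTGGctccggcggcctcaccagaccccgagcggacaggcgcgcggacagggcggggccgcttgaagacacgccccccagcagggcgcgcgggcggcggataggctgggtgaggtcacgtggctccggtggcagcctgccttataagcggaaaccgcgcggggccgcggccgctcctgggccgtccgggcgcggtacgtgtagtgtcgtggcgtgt
Msmo1, chr8:64733579-64733828, minus strand: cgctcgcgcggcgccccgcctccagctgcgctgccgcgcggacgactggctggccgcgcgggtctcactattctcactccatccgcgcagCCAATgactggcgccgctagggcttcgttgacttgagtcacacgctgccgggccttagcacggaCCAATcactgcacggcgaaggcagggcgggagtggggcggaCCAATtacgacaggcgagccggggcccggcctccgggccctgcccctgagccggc
Acat2, chr17:12960726-12960975, minus strand: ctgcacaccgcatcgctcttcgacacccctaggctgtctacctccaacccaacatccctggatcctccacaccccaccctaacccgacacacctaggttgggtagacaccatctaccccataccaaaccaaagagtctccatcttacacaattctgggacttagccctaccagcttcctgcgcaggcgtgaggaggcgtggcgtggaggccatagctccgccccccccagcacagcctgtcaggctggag
Hmgcs1, chr13:119690101-119690350, plus strand: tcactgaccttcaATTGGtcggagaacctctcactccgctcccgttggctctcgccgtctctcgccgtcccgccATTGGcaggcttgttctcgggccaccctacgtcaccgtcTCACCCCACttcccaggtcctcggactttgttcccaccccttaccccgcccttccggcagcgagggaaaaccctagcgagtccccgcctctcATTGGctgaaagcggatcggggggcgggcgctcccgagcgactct
Ebp, chrX:8193513-8193762, minus strand: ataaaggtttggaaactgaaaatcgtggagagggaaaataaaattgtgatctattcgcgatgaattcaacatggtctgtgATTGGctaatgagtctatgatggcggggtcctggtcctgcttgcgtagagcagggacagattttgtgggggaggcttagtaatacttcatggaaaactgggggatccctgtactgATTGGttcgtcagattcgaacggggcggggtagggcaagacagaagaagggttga
The run of Hmgcs1 held both kinds of element, with its sterol regulatory element starting at position -137 from the start site. Insig1 held 1 CCAAT box, Msmo1 3, Hmgcs1 3 and Ebp 2, and Acat2, the only sterol step with a start and no such box, held none. The box was thus present before Ebp, which rose, as well as before falling members. Start sites were given for 26 of the 33 members, credited to RefSeq with build GRCm38.p6. On either strand, CCAAT was found before at least 1 start of 14 of 15 sterol steps, 4 of 5 regulators and 2 of 6 fatty acid genes, and of 37.5% of 27025 genes in the same table. The GC box GGGCGG, bound by Sp factors, was found in 14 of 15, 5 of 5 and 3 of 6 of these classes, against 35.4% of all genes. The sterol regulatory element in its strict form was found in 1 of 26 members against 1.22% of all genes, and the E-box CACGTG, which clock factors bind, in 5 of 26 against 6.86%. The median GC content of the member runs was 62.8%, and that of all 32851 runs in the table was 52.4%. All 4 motifs were searched on both strands, and none contains another whole. These matches describe letters in this window and not sites in use.

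Over the undisturbed day, most sterol genes were lowest in the middle of the dark phase, while a peak in the light phase was less clear. Relative to each gene's mean over all libraries, the sterol steps averaged -0.15 at ZT18. They averaged 0.03, -0.05, 0.07 and 0.02 at ZT0, ZT3, ZT6 and ZT12, with overlapping libraries among these times. Of the 33 members, 20 differed among the 5 control times (limma F-test, adjusted p below 0.05), where 40.7% of all genes did. Among these 20, the highest mean lay at ZT6 in 12 and the lowest at ZT18 in 15, and 11 of the 12 sterol steps that varied were lowest at ZT18. From ZT6 to ZT18, when mice are mostly asleep and mostly active respectively, 17 members fell and 2 rose, against 14.3% and 15.4% of all genes. The median log2 difference was -0.24 over the 18 sterol steps, 0.09 over the regulators, 0.01 over the fatty acid genes and below 0.01 in size over all genes. From ZT6 to ZT18, 13 members fell and 1 rose within batch 1 alone, and 11 fell and 1 rose within batch 2 alone. Shares of all genes called within a single batch are not given here or below. Such counts thus show the direction of the called members and nothing particular to them.

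The same span was also tested in its light and its dark part. From ZT6 to ZT12 the only call was a fall of Scd2 by 0.11 (2.08% of all genes fell), which was lost within either batch and without any one of T12N1, T12N2, T12N5, T12N6, T6N2, T6N3, T6N4 and J76N2. From ZT12 to ZT18 13 members fell and 4 rose, against 12.1% and 14.8% of all genes. The 4 that rose were Ebp (0.37), Insig2 (0.28), Elovl6 (0.23) and Srebf1 (0.22). Between these 2 times 10 members fell and 3 rose within batch 1 alone, and 4 fell and 1 rose within batch 2 alone.

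Cell type markers also moved in both directions from ZT6 to ZT18, where 14.3% of all genes fell and 15.4% rose. Of 12 oligodendrocyte markers 4 were lower at ZT18 and none was higher. The summed linear levels of all 12 were 2170 to 2830 (median 2300) at ZT6 and 2090 to 2580 (median 2450) at ZT18. Of 10 markers of their precursors 4 were higher and none was lower. Astrocyte sums were 2580 to 2690 at ZT6 and 2560 to 2650 at ZT18, with 1 of 13 markers higher and 1 lower. The part of these markers' cells in the daily differences was not tested.

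Insig1, which retains SREBP in the endoplasmic reticulum, had the widest daily range of the 33. Its log2 level was 6.09, 6.12, 6.18, 6.20 and 6.37 in the ZT6 controls and 5.25, 5.31, 5.55, 5.62 and 5.65 in the ZT18 controls. Every ZT18 animal lay below every ZT6 animal, and the fitted difference was -0.71 ± 0.08 (SE; 0.609-fold; adjusted p = 6.78e-09, limma). In the ZT0 controls Insig1 spanned 5.61 to 6.02 with a median of 5.89, at ZT3 it was 5.84, 6.02 and 6.02, and at ZT12 it was 5.88, 5.89, 6.04, 6.07 and 6.16. The order of the means was thus ZT6, ZT12, ZT3, ZT0 and ZT18, and the ranges of ZT0, ZT3 and ZT12 overlapped one another.

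Early and late sterol steps shared this course. Hmgcs1, which makes HMG-CoA, was at 7.53, 7.55, 7.56, 7.65 and 7.72 at ZT6 and at 6.98, 7.04, 7.05, 7.16 and 7.17 at ZT18, a gap with no overlap and a difference of -0.52 ± 0.06 (SE). Msmo1, the oxidase that removes methyl groups from sterols, differed by -0.49 ± 0.07, and the mevalonate pathway enzymes Mvd and Idi1 both by -0.41. Sqle, the squalene epoxidase, Fdft1, the squalene synthase, Nsdhl and Sc5d fell by 0.32, 0.26, 0.26 and 0.25 on the log2 scale. The transfer protein Stard4 fell by 0.38, from 4.21, 4.26, 4.32, 4.35 and 4.42 at ZT6 to 3.76, 3.88, 3.94, 4.03 and 4.06 at ZT18. Acat2, Mvk, Lss, Cyp51 and Dhcr7 fell by less, between 0.18 and 0.25. Of 21 alternative fits, 10 lost the call of Lss, 7 that of Dhcr7, 4 each those of Mvk and Cyp51 and 3 that of Acat2. Lss and Dhcr7 were also not called over the 5 control times (adjusted p = 0.0554 and 0.111, limma F-test). Pmvk, Fdps, Tm7sf2 and Hsd17b7 were not called, with differences between -0.11 and 0.02.

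One sterol step ran the other way. Ebp, the isomerase that shifts a double bond in the sterol ring, was at 4.13, 4.25, 4.26, 4.28 and 4.42 at ZT6 and at 4.54, 4.55, 4.60, 4.61 and 4.63 at ZT18. All ZT18 animals lay above all ZT6 animals, and Ebp rose by 0.32 ± 0.07 log2 units (1.25-fold, adjusted p = 0.000784, limma).

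The regulators other than Insig1 and the fatty acid genes had no common phase. Srebf1 varied over the day (adjusted p = 0.000386, limma F-test) and was highest at ZT3, at 4.99, 5.01 and 5.12, and lowest at ZT0, where 8 animals spanned 4.59 to 4.91. Insig2 was highest at ZT18 (adjusted p = 0.00611), while Srebf2 and Scap were not called, with daily ranges of 0.14 and 0.13 log2 units. Of the 9 fatty acid genes, Elovl6, Scd1, Scd2 and Acly varied. Elovl6, which elongates palmitate, was highest at ZT0 (4.57 to 4.88, median 4.72) and lowest at ZT3 (4.26, 4.31 and 4.43), with no overlap. The desaturases Scd1 and Scd2 were highest at ZT6 and lowest at ZT18, with ranges of 0.19 and 0.13 log2 units, whereas Fasn, Acaca, Acss2, Fads1 and Fads2 were not called.

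**Figure D1:**
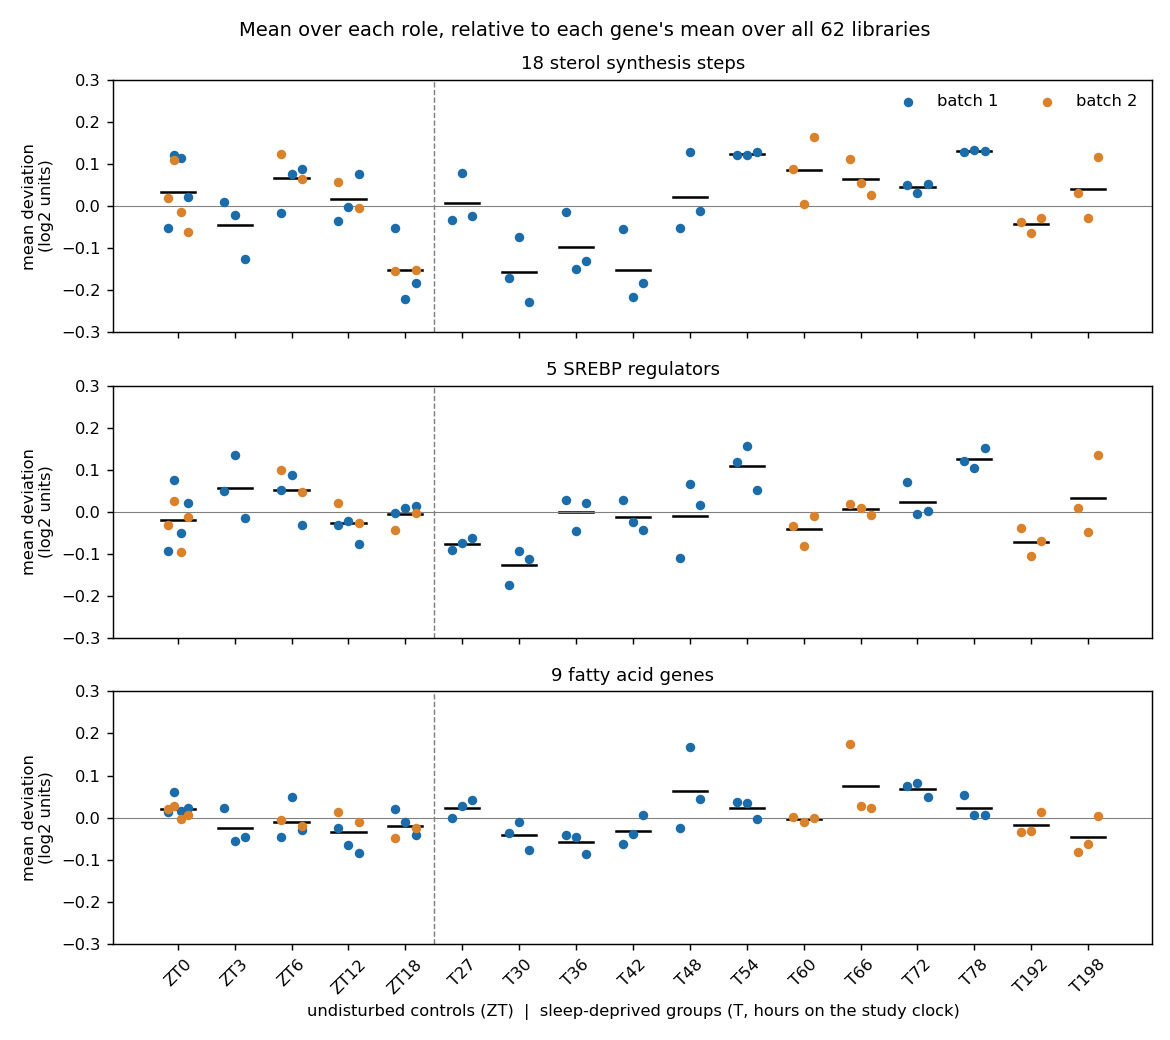
Mean deviation of each role class from its genes' means over all 62 libraries (y axis, log2 units), for every library by group (x axis), with batches 1 and 2 coloured and black bars for group means. The 18 sterol steps sit lowest in ZT18, T30, T42 and T36 and highest in T78 and T54, while the 9 fatty acid genes stay within a narrower band.

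After 3 h of sleep deprivation, few members were called, and the largest changes were those of Srebf1 and Elovl6. At T27 against ZT3, 2 members rose and 4 fell, where 8.21% of all genes rose and 7.37% fell. Srebf1 was at 4.57, 4.58 and 4.75 in the deprived mice and at 4.99, 5.01 and 5.12 in the controls, a difference of -0.41 ± 0.08 (SE; adjusted p = 0.000303, limma) without overlap. Insig1 fell by 0.32, Stard4 by 0.23 and Acat2 by 0.21. Elovl6 was higher by 0.39 ± 0.08, at 4.66, 4.71 and 4.79 against 4.26, 4.31 and 4.43 in the controls, and Ebp by 0.26. At ZT0, when deprivation began, Elovl6 averaged 4.77 in batch 1 and 4.67 in batch 2, near the T27 animals. Srebf1 averaged 4.74 at ZT0 in either batch, against 4.57, 4.58 and 4.75 at T27. T27 was not tested against ZT0. The other 16 sterol steps were not called, and the class had a median difference of 0.07, with 12 of 18 positive. The calls of Srebf1 and Elovl6 stood without animal T3N2, T27S2 or T27S5 in turn, and were the 2 calls left in each of these fits in place of 6.

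After the full 6 h of deprivation, most of the sterol pathway was down. At T30 against ZT6, 17 members fell and 1 rose, where 15.6% of all genes fell and 16% rose. By role, 12 of 18 sterol steps, 2 of 5 regulators, Stard4 and 2 of 9 fatty acid genes fell, and Ebp rose. The median log2 difference was -0.27 over the sterol steps, -0.11 over the regulators and -0.08 over the fatty acid genes, against a median below 0.01 in size over all genes. All 3 deprived animals lay below all 5 controls in 18 members and above them in 1, while 16.3% and 16.1% of all genes were placed so. Within batch 1, which held all T30 animals and 3 of the ZT6 animals, 16 members fell and 1 rose. The share of all genes within that batch is not given, so these counts show direction only.

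Insig1 led the falling members. Its level was 5.34, 5.47 and 5.52 at T30, and all ZT6 controls lay at 6.09 or above. The difference was -0.75 ± 0.10 (SE; 95% interval -0.95 to -0.56; 0.593-fold; adjusted p = 6.94e-08, limma), and -0.69 within batch 1. The transfer protein Stard4 was at 3.78, 3.93 and 3.96 against 4.21 to 4.42 in the controls and fell by 0.43 (0.744-fold, adjusted p = 9.19e-06), again with no overlap.

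The sterol steps fell from both ends of the pathway. Sqle, the epoxidase that commits squalene to sterols, was at 4.80, 4.96 and 5.01 at T30 and at 5.29, 5.32, 5.33, 5.38 and 5.39 in the controls (difference -0.42 ± 0.06 SE, adjusted p = 7.7e-07, limma). Hmgcs1, whose ZT6 values were given above, stood at 7.07, 7.20 and 7.33 and fell by 0.41, with its highest deprived animal below its lowest control. Acat2, the cytosolic thiolase at the entry of the pathway, was at 4.55, 4.79 and 4.81 against 5.03, 5.11, 5.16, 5.19 and 5.19, a fall of 0.41 without overlap. Msmo1 was at 5.99, 6.11 and 6.15 against 6.39 to 6.66 and fell by 0.41 as well. Lss, which closes the ring to lanosterol, and Dhcr7, which makes the last reduction to cholesterol, fell by 0.39 and 0.37.

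The mevalonate kinase Mvk and the decarboxylase Mvd fell by 0.30 and 0.32, the isomerase Idi1 by 0.29, and Fdft1, Nsdhl and Sc5d by 0.25, 0.24 and 0.20. Some of these calls rested on 1 animal: Idi1 (adjusted p = 0.102, limma) and Mvd were not called without animal T30S4, and Mvk was not called without animal T30S1. Nsdhl was the only falling sterol step whose deprived and control animals overlapped. Pmvk (-0.03), Hsd17b7 (0.02), Cyp51 (-0.13), Tm7sf2 (-0.16) and Fdps (-0.18) were not called.

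Ebp was the only sterol step that rose. Its level was 4.59, 4.73 and 4.76 at T30 against 4.13 to 4.42 in the ZT6 controls, with no overlap. The rise was 0.43 ± 0.09 (SE; 95% interval 0.26 to 0.61; 1.35-fold; adjusted p = 0.000129, limma) and 0.38 within batch 1.

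Among the regulators, Srebf1 stood at 4.48, 4.55 and 4.65 at T30 and at 4.68 to 4.92 at ZT6, and fell by 0.26 (0.832-fold, adjusted p = 0.00457, limma). Srebf2, which drives the sterol genes, had a difference of 0.08, Insig2 of 0.17 and Scap of -0.11, and none of these was called. In the fatty acid class the desaturases Scd1 and Scd2 fell by 0.15 and 0.14, the first with an adjusted p of 0.0478 that several single animals decided. Fasn, the fatty acid synthase (-0.08), Acaca, the acetyl-CoA carboxylase (0.01), Acly (0.03), Acss2 (0.06), Elovl6 (0.18), Fads1 (-0.11) and Fads2 (-0.08) were not called.

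From 3 h to 6 h, the change in the deprivation effect was not called for any member (limma, contrast of both effects; 0.00722% of all genes were called). It was negative in 26 of 33 members and largest in Msmo1 (-0.57, adjusted p = 0.0827), Hmgcs1 (-0.48, adjusted p = 0.0954) and Insig1 (-0.44, adjusted p = 0.388). The levels of Hmgcs1 show what entered this contrast: at 3 h the deprived animals were at 7.28, 7.31 and 7.55 with controls at 7.22, 7.35 and 7.36, and the controls of 6 h stood at 7.53 or more.

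**Figure D2:**
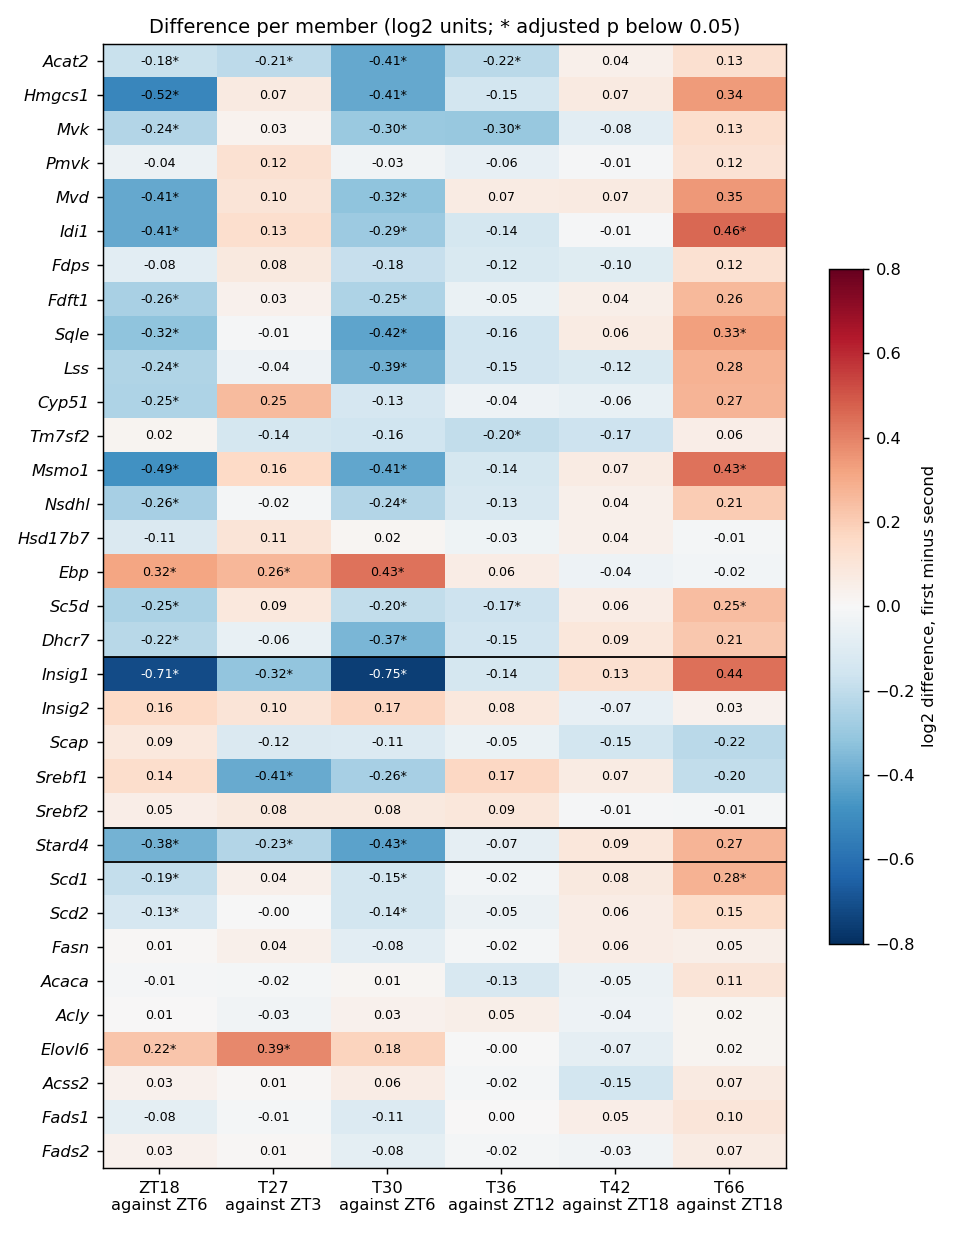
Log2 difference of each of the 33 members (rows, grouped as sterol steps, regulators, Stard4 and fatty acid genes) in 6 comparisons (columns), coloured from blue (lower in the first group) to red (higher), with asterisks at adjusted p below 0.05. The T30 column is blue for most sterol steps with Ebp in red, and the T66 column is red for 16 of the 18 sterol steps.

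Deprived mice at ZT6 had levels near those of undisturbed mice in the middle of the dark phase. T30 was therefore also set against ZT18, in a comparison that shares its T30 animals with the one above and its ZT18 animals with the daily one. Here 2 members were lower and none was higher, where 3.27% of all genes were lower and 3.4% higher: Srebf1 (-0.40, adjusted p = 0.000241, limma) and Acat2 (-0.23, adjusted p = 0.0178). Insig1 differed by -0.04 (95% interval -0.24 to 0.16), Sqle by -0.10 (-0.22 to 0.03), Hmgcs1 by 0.11 (-0.04 to 0.26) and Ebp by 0.11 (-0.06 to 0.29). These intervals leave room for differences of up to 0.29 log2 units, so that equality is not shown. Srebf1 was at 4.81, 4.84, 5.01, 5.05 and 5.12 at ZT18, above all 3 T30 animals. Without animal T30S4, 1 call was left in place of 2.

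Against ZT0, when deprivation began, 10 members were lower at T30 and none was higher, with 2.36% of all genes lower and 3.11% higher. Insig1 was lower by -0.40, Msmo1 by -0.36, Sqle by -0.35, Hmgcs1 by -0.27, Acat2 by -0.25 and Stard4 by -0.24, followed by Fdps, Fdft1, Sc5d and Scd2. In undisturbed mice over the same 6 h, 5 members were called, where 11.2% of all genes were higher and 11.5% lower. Insig1 rose by 0.36 (adjusted p = 0.000386, limma), Stard4 by 0.19 and Acat2 by 0.16, while Elovl6 fell by 0.26 and Ebp by 0.20. Only 1 member was called within batch 1 alone, and 1 within batch 2 alone. Of the 10 members lower at T30 than at ZT0, only 1 was still called without animal T30S4.

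Cell type markers moved in both directions at T30, where 15.6% of all genes fell and 16% rose. Of 12 oligodendrocyte markers, 4 fell and none rose (Opalin -0.95, Aspa -0.50, Mog -0.38, Cnp -0.22). The summed linear level of all 12 was 1920 to 2580 (median 2490) at T30 and 2170 to 2830 (median 2300) at ZT6. The median sum was thus not lower at T30. Of 13 astrocyte markers 1 rose and 1 fell, with sums of 2570 to 2690 at T30 and 2580 to 2690 at ZT6, and of 12 microglial markers 1 rose and 4 fell, with sums of 437 to 454 and 456 to 478. Risen and fallen markers numbered 3 and 2 of 12 for endothelium, 1 and 1 of 10 for excitatory neurons, 3 and 0 of 10 for inhibitory neurons and 3 and 0 of 10 for oligodendrocyte precursors. The part of cell type content in the sterol differences was not tested.

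Genes that handle sterols and fatty acids outside the 33 moved in both directions. Of 67 related genes 64 were measured, and at T30 9 rose and 16 fell, where 16% and 15.6% of all genes did. Tmem97, one of the 16, which encodes a sterol-binding membrane protein, fell by 0.40 (adjusted p = 3.12e-06, limma). The largest rises were those of Nr1h3, which encodes the oxysterol receptor LXR alpha (0.47), Lrp8, a receptor for apolipoprotein E and reelin (0.43), and Elovl1, an elongase of very long chains (0.38). From ZT6 to ZT18, 7 of the 64 rose and 21 fell, where 15.4% and 14.3% of all genes did, with Fabp7, a fatty acid binding protein, lower by -0.65 and with Ppard (0.26), Elovl1 (0.25) and Gramd1b (0.21) as the largest rises.

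**Figure D3:**
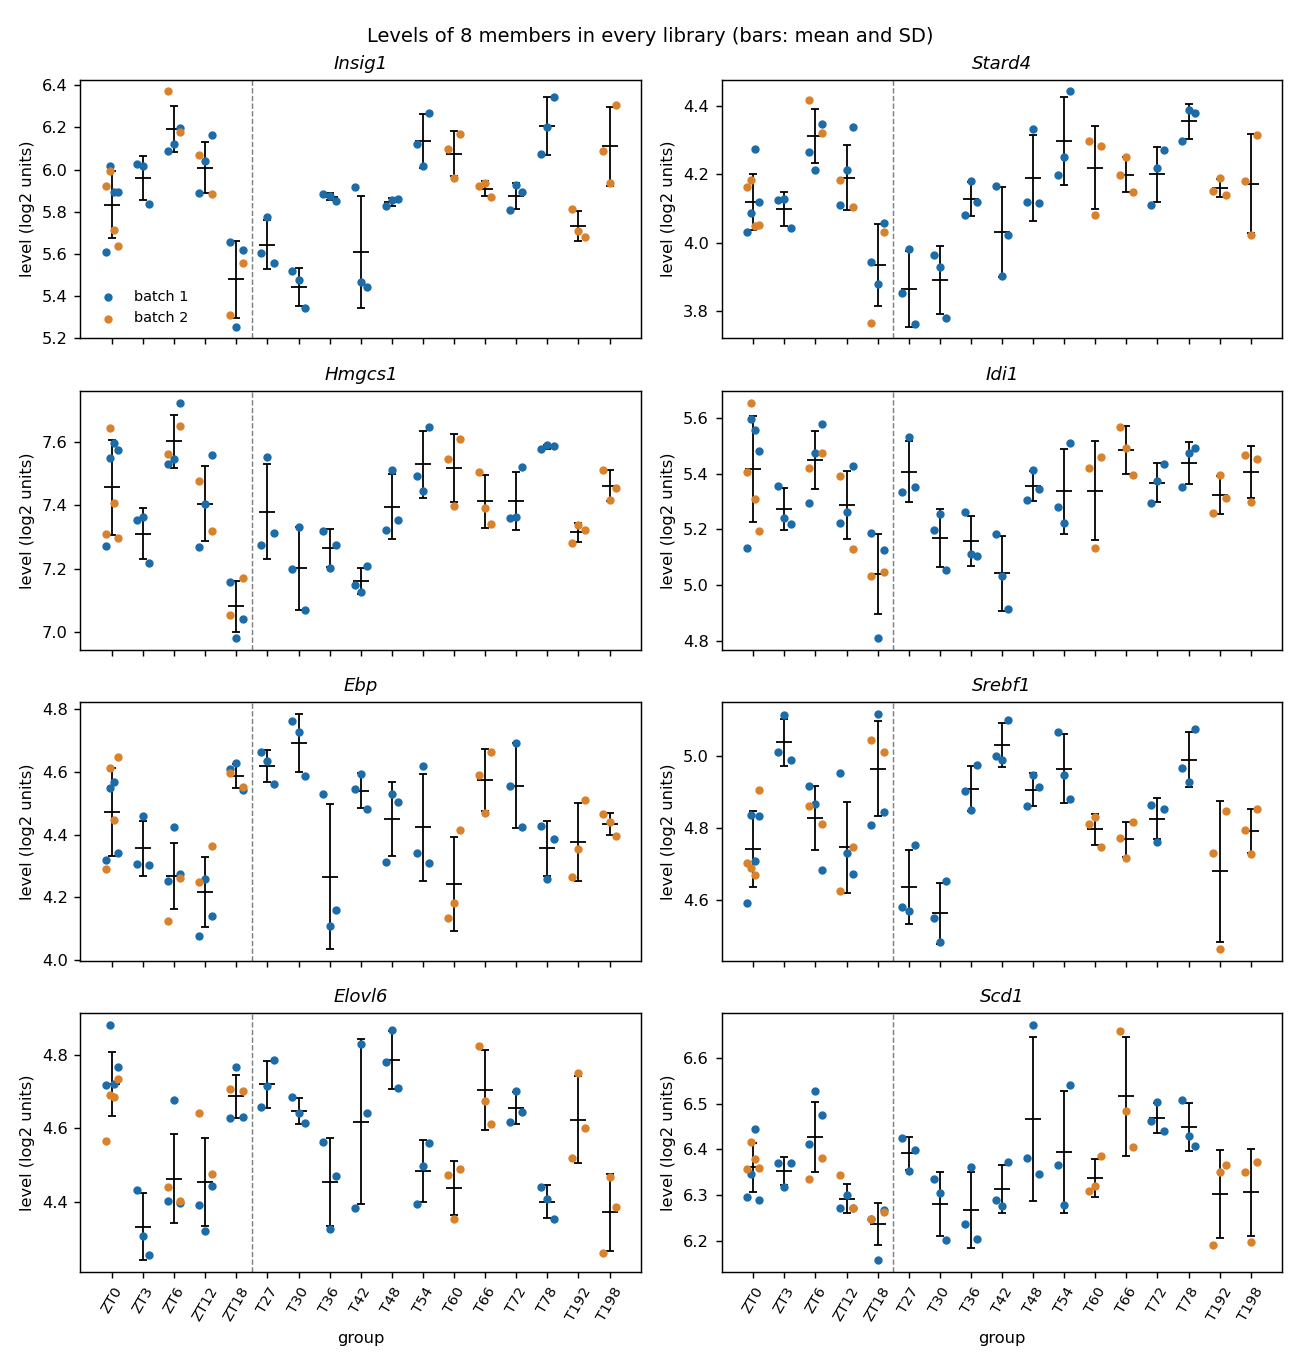
Level of 8 members (y axes, log2 units) in each of the 62 libraries by group (x axis), with points coloured by batch and bars for mean and SD. Insig1, Stard4 and Hmgcs1 are low at ZT18 and T30, Ebp is high at both, Srebf1 is lowest at T30, and Idi1 and Scd1 are higher at T66 than at ZT18.

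Fewer members were called during recovery. At T36, 6 h after the end of deprivation and at dark onset, 4 members fell and none rose against ZT12, where 4.46% of all genes fell and 7.46% rose: Mvk (-0.30), Acat2 (-0.22), Tm7sf2 (-0.20) and Sc5d (-0.17). The sterol steps still had a median of -0.14, and no member of the other classes was called. Oligodendrocyte markers were negative in 12 of 12 with 2 called and a median of -0.23, and their part in these values was not tested. The T36 calls rested on single animals, with none left without T36S2, 1 left without T12N4 and 2 left without T36S1.

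The return was tested as the T36 effect minus the T30 effect. Insig1 (0.61, adjusted p = 0.00158, limma), Srebf1 (0.43, adjusted p = 0.00298), Stard4 (0.36) and Sqle (0.26) moved up and Ebp moved down (-0.38), where 5.61% of all genes moved up and 5.75% down. Insig1 was at 5.85, 5.88 and 5.88 at T36, at or just under the low end of the ZT12 controls, which spanned 5.88 to 6.16. Srebf1 was at 4.85, 4.90 and 4.98, above all T30 animals. Without animal T12N6, J76N1 or T30S4 in turn, 3 of these 5 calls were left.

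At T42, the middle of the first night, no member was called against ZT18, where 1.05% of all genes were, and the median difference of the sterol steps was 0.04. Insig1 was at 5.44, 5.47 and 5.92, with 1 animal above all ZT18 controls. On the following days, T48 gave 1 call (Tm7sf2, -0.24, with 0.701% of all genes lower), which was lost without any one of T0N5, T0N1, T0N2, T48S1 and T48S4. T54, T60 and T72 gave none (0.00722% of all genes each), nor did T78 (0%), T192 (0%) or T198 (0.00722%), although leaving out animal T54S4 brought 2 calls at T54. At T78 all 3 animals lay above all ZT6 controls in 6 members (Acat2, Mvd, Fdps, Tm7sf2, Hsd17b7 and Srebf1), while 2.62% of all genes were placed so, with adjusted p values from 0.817 to 0.841 (limma).

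A few members were called in the second night after deprivation. At T66 against ZT18, 5 members rose and none fell, where 0.0433% of all genes rose and 0.0361% fell. The 5 were Idi1, Msmo1, Sqle, Sc5d and Scd1, and only 1 further gene of the table, Prkcq, was higher at this time, with 5 genes lower. Of the 18 sterol steps 16 had a positive difference, with a median of 0.23, as had 9 of 9 fatty acid genes, with a median of 0.07. The share of positive differences over all genes is not given here. One animal carried much of the fatty acid value: the class mean deviation was 0.176 in T66S2, 0.027 in T66S3 and 0.022 in T66S5. In the ZT18 controls it spanned -0.049 to 0.022. The regulators had a median of -0.01, with Insig1 at 0.44 (adjusted p = 0.0551, limma) and Srebf1 at -0.20 (adjusted p = 0.348). All T66 animals lay above all ZT18 controls in 13 members and below them in 0, while 3.1% and 3.46% of all genes were placed so.

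Idi1, which interconverts the first isoprenoid building blocks, was at 5.40, 5.49 and 5.57 at T66 and at 4.81, 5.03, 5.05, 5.13 and 5.19 at ZT18. The groups did not overlap and the difference was 0.46 ± 0.10 (SE; adjusted p = 0.0249, limma). Msmo1 was at 6.32, 6.34 and 6.62 against 5.82, 6.00, 6.01, 6.04 and 6.15, a rise of 0.43 (adjusted p = 0.0228). Sqle was at 5.29, 5.30 and 5.43 against 4.97, 4.98, 4.98, 5.05 and 5.10 and rose by 0.33 (adjusted p = 0.0184). In each of these members the T66 animals lay in or near the range of the ZT6 controls, which was 5.30 to 5.58 for Idi1, 6.39 to 6.66 for Msmo1 and 5.29 to 5.39 for Sqle.

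Sc5d, which sets a double bond in the sterol ring, was at 5.58, 5.65 and 5.79 against 5.39, 5.41, 5.42, 5.42 and 5.49 and rose by 0.25. Scd1, the desaturase that makes oleate, was at 6.41, 6.48 and 6.66 against 6.16, 6.25, 6.25, 6.26 and 6.27 and rose by 0.28. The next members by adjusted p were Hmgcs1 (0.34, adjusted p = 0.0528, limma), Insig1, given above, and Fdft1 (0.26, adjusted p = 0.0712). Ebp, the member that rose at T30, had a difference of -0.02 at T66.

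These 5 calls rested on few animals. The deposited values were already adjusted for batch, so fits with, without or within batch do not show its full part at T66. All T66 animals are of batch 2, and within that batch, with 2 ZT18 controls, none was called although the differences were of like size (Idi1 0.44, adjusted p = 0.431; Msmo1 0.40; Sqle 0.33; Scd1 0.26; Sc5d 0.25). None was called without control T18N7 or deprived animal T66S3, 1 without T66S2 and 2 without T18N3, while 8 members were called without T18N2. At T42, which shares the ZT18 controls, the same genes had differences of -0.01 (Idi1), 0.07 (Msmo1), 0.06 (Sqle), 0.06 (Sc5d) and 0.08 (Scd1). The T66 effect exceeded the T42 effect in Idi1 alone (0.47, adjusted p = 0.0389, limma; 0.123% of all genes), a call lost without any one of 7 animals (T18N2, T18N4, T18N7, T42S4, T42S6, T66S2 and T66S3). No member differed between the effects at T66 and T60 (0% of all genes), with Sc5d nearest (0.28, adjusted p = 0.0689).

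Oligodendrocyte markers were higher at T66 in the same direction: 12 of 12 had a positive difference, none was called, the median was 0.24, and their summed level was 2370 to 3310 against 2090 to 2580 at ZT18. Astrocyte sums were 2590 to 2880 against 2560 to 2650, with no marker called. The part of these cells in the T66 differences was not tested. None of the 64 related genes was called at T66.

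**Figure D4:**
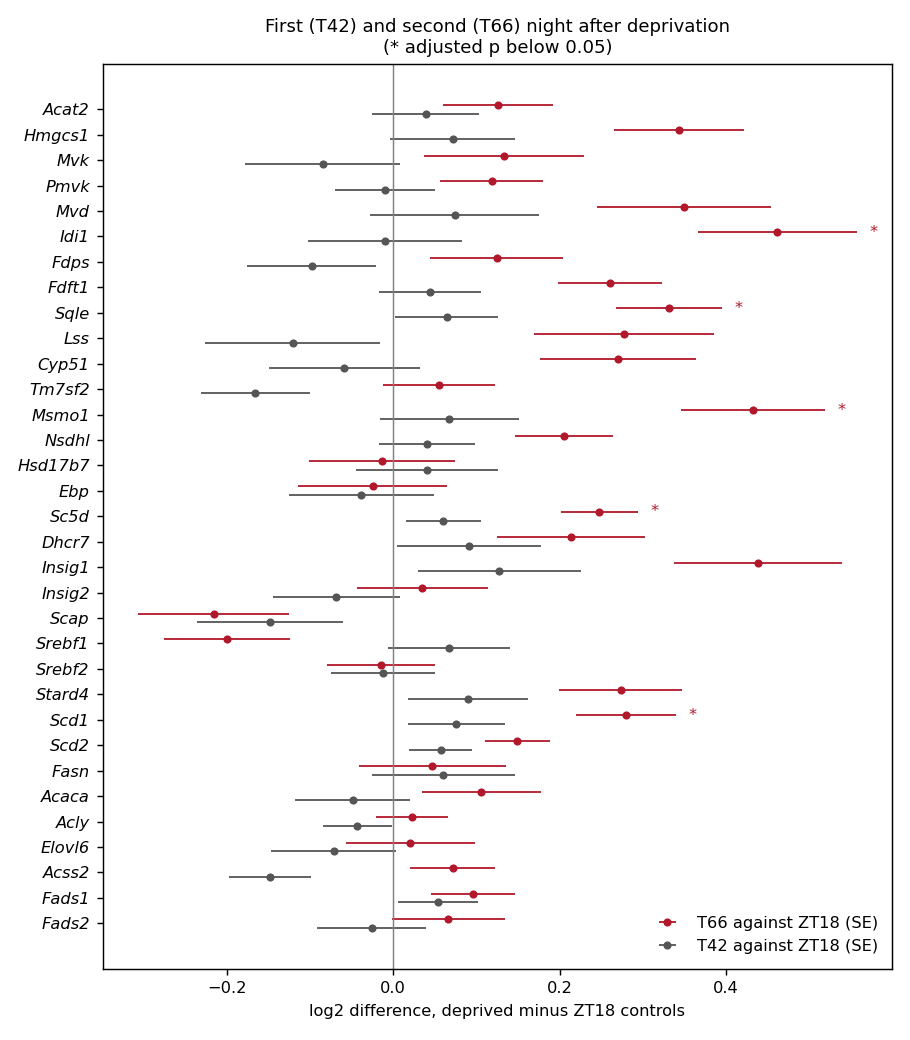
Log2 difference from ZT18 controls (x axis, points with SE) of each of the 33 members (y axis) in the first night after deprivation (T42, grey) and in the second (T66, red), with asterisks at adjusted p below 0.05. Most sterol steps lie near 0 at T42 and between 0.12 and 0.46 at T66, with Ebp, Hsd17b7 and Tm7sf2 as the steps nearest 0.

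Across libraries the sterol steps also varied together within groups. Group means were taken out, but no batch means. The median Pearson correlation over 153 pairs of sterol steps was then 0.30 (from -0.24 to 0.86; 62 libraries). That of 36 pairs of fatty acid genes was 0.20, and that of a sterol step with a fatty acid gene was 0.17. Members paired with all other genes had a median of 0.01, and all of these values share library preparation and dissection. Fdps, Sqle and Msmo1 had the highest median correlation with the other steps (0.55, 0.52 and 0.51), and Ebp, Tm7sf2 and Lss the lowest (0.15, 0.14 and 0.13). Insig1 ran closest to Idi1 (0.79), Stard4 (0.76), Cyp51 (0.72) and Msmo1 (0.68), and its correlation with Srebf1 was -0.24.

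Chromatin at the starts of these genes gave no call between deprived mice and controls of the same time. All 26 members with a RefSeq start had an ATAC peak within 1000 bp, 32 peaks in all, and none was called at T27, T30, T36, T42, T66 or from ZT6 to ZT18 (limma over 130727 peaks, of which 0.689%, 2.6%, 0.618%, 0%, 0% and 0% were called). T66 had 1 ATAC library, and with no peak called anywhere at T42, T66 or from ZT6 to ZT18, the lack of a call at members there says nothing particular to them. At an unadjusted p below 0.05 (limma) there were 7, 1, 1, 2, 0 and 0 peaks. This was not counted over all peaks, so it shows nothing particular to these genes. With edgeR on recovered reads, none of the 32 was called. At T27, 29 of 32 peaks had a negative difference with a median of -0.20, while all 15964 peaks within 1000 bp of any start had a median of -0.12 with 72.5% negative. At T30 the member median was -0.08 with 27 negative, against -0.10 and 69.3%.

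The promoter peak of Insig1 (chr5:28070487-28072333 in GRCm38) spans the run printed above. Its normalised signal was 72.7, 72.7 and 78.2 at T27 against 80.0, 96.1 and 98.3 at ZT3, with no overlap and a log2 difference of -0.29 that was not called (adjusted p = 0.312, limma). At T30, when the RNA of Insig1 differed most, the signal was 70.6, 73.9 and 74.8 against 68.9, 70.1, 78.4, 79.9 and 82.0, with overlapping groups and a difference of -0.08. The peak of Msmo1 was the only one called over the control day (adjusted p = 0.0349; 1.39% of all peaks called): it was highest at ZT3 (69.0, 72.2 and 72.9) and lowest at ZT0 (40.0 to 57.6, median 49.8), and edgeR did not call it. The peaks of Hmgcs1 and Ebp differed by -0.11 and 0.01 at T30.

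**Figure D5:**
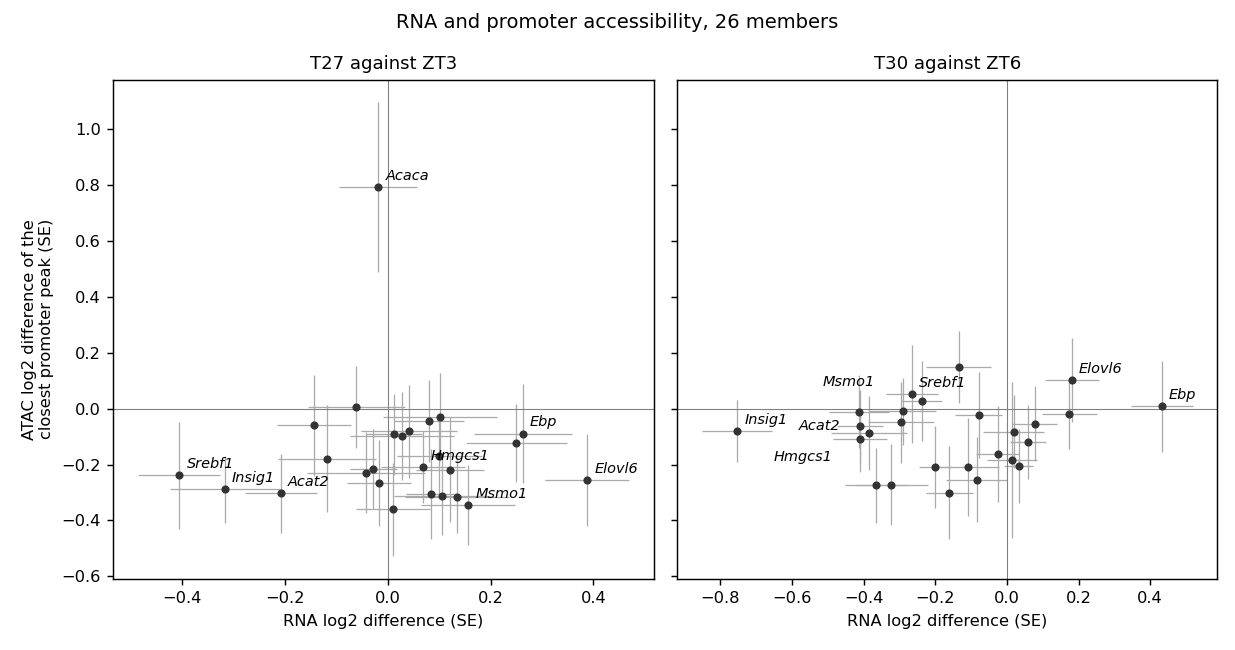
Log2 difference of the promoter peak nearest the start (y axis, SE) against the RNA log2 difference (x axis, SE) of 26 members after 3 h (left) and 6 h (right) of deprivation. Most members lie below 0 on the ATAC axis on both sides whichever way their RNA differs; the high point at T27 is a peak of low signal at a start inside Acaca (0.79, adjusted p = 0.247).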

How the data were processed

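RNA was quantified and normalised by the authors, whose processing notes name kallisto 0.43.0 and sleuth 0.29.0, and was deposited as log2 values whose zeros show an added 0.5. The deposited RNA values were already adjusted for batch. The batch term was fitted on top of this, and the residual degrees of freedom do not count the earlier adjustment. ATAC reads were counted in peaks by the authors (Bowtie2, MACS2 2.1.1 and HTSeq 0.6.1, per the submitters' processing notes) and deposited as normalised signal; all values were whole reads times a step of each library (100%, tolerance 0.02), and log2 of signal plus 0.5 was tested. No source used here states a scaling of RNA levels by gene length, so levels are not compared between genes.

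RNA and ATAC were each fitted over all features with limma 3.58.1 (R 4.3.3; group means, batch term, intensity trend, two-sided, Benjamini-Hochberg over all features, 44 and 41 residual degrees of freedom). Libraries T0 and T24 of undisturbed mice formed ZT0, 1 ZT0 animal's merged libraries counted as batch 1, and T36 was timed by the protocol, although its labels place it during deprivation. T66 has 1 ATAC library, whose spread was taken from the other groups. The scripts were tested on simulated data. The members and gene lists were chosen with earlier results of these data known. All 33 members are accounted for. Library values are given for up to 6 members per role with the largest changes in a comparison, and up to 3 related genes each way; a few of these are not reported here. The alternatives were other batch, trend, moderation, filter, offset and scaling settings, fewer groups, a replicate block, each library left out, and for ATAC edgeR 4.0.16, other windows and a filter. Animals are separate mice, so that p-values measure the spread between mice.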

Additional observations from a re-analysis of the deposited data

Results flagged for a closer look

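Single animals stood far from the rest of their control group in 6 of 132 combinations of member and group, where chance gives about 1 in 20. The isolated values were 4.68 for Elovl6 in ZT6 animal T6N3, 6.44 for Fads2 in ZT0 animal T0N9, 4.20 for Nsdhl in ZT18 animal T18N2, 5.24 for Pmvk in ZT0 animal T0N8, 6.16 for Scd1 in ZT18 animal T18N3 and 5.43 for Sqle in ZT0 animal T0N3 (log2 levels).

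The deprivation effect differed between T36 and T30, by a limma contrast of both effects, in Insig1 (0.61), Srebf1 (0.43), Stard4 (0.36), Sqle (0.26) and Ebp (-0.38). Between T66 and T42 it differed in Idi1 (0.47).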

How the results depend on the processing

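Direction was followed only for members called at T27, T30, T36, T66 or from ZT6 to ZT18, and none of these reversed in any alternative. Uncalled members and other comparisons were not followed in this way. Over the alternatives, the calls held in 311 of 324 fits at T30 and 367 of 399 from ZT6 to ZT18. They held in 70 of 96 at T27, 52 of 72 at T36 and 58 of 90 at T66. Counts of called members that moved by over 1.5 times are given next, and the cause was not tested. Without a batch term 8 members were called at T66 and 5 for T66 minus T42. In batch 1 alone there were 2 at T36, 0 at T48, 1 from ZT0 to ZT6, 0 from ZT6 to ZT12, 1 for T30 against ZT18, 6 for T30 against ZT0 and 2 for T36 minus T30. In batch 2 alone there were 0 at T66, 1 from ZT0 to ZT6, 0 from ZT6 to ZT12, 5 from ZT12 to ZT18 and 12 from ZT6 to ZT18. With only the groups compared there were 1 at T36, 0 at T48, 0 at T66, 0 from ZT6 to ZT12, 3 for T30 against ZT0 and 0 for T66 minus T42. Without an intensity trend, or without genes below the 25th percentile, 0 were called from ZT6 to ZT12, and without the animal with merged libraries 0 at T48. Centring each library shifted the median of all genes by at most 0.015.

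Same-numbered animals had a median correlation of -0.00069 over 330 pairs (from -0.31 to 0.36). Deviations sum to 0 within each group and all groups were pooled, so this median cannot exclude a pairing of particular groups. The animal number was therefore also entered in the fits. With it as a replicate block, 2 members were called at T27, 2 at T36, 0 at T48, 0 at T66, 2 from ZT0 to ZT6, 0 from ZT6 to ZT12 and 0 for T66 minus T42, against 17 at T30 and 15 from ZT6 to ZT18. The Msmo1 peak was not called over the day under the block or with edgeR (0 peaks each). With each library left out in turn, called members ranged from 2 to 5 at T27, 0 to 5 at T36, 0 to 1 at T48, 0 to 2 at T54, 0 to 8 at T66, 0 to 1 from ZT6 to ZT12, 1 to 11 for T30 against ZT0, 1 to 2 for T30 against ZT18, 3 to 6 for T36 minus T30, 0 to 2 for T66 minus T42, and 0 to 1 for ATAC over the day. At T30 the range was 15 to 19, and from ZT6 to ZT18 it was 16 to 20.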
